A study of Mus musculus with 80 samples.

Results

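The genes of the TGF-beta and BMP pathway were followed in muscle stem cells (MuSCs) taken from extraocular muscle (EOM) and from Tibialis anterior (TA), before and after transplantation. The members were chosen by symbol alone: the TGF-beta, BMP, GDF and inhibin beta ligands, myostatin, the type I and type II receptors with betaglycan, Smad1 to Smad9, the chordin, gremlin, noggin and follistatin families, the latent TGF-beta binding proteins, and Id1 to Id4. This gave 64 members of the 25899 genes of the table. Bmp1 and the Fstl proteins matched by name, although Bmp1 encodes a procollagen protease and not a ligand.

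MuSCs were sorted by their green fluorescence from Tg:Pax7-nGFP mice, in which Pax7 regulatory sequences drive a nuclear GFP, so the reporter rather than a surface phenotype set the gate. The EOM pre-graft and TA pre-graft groups hold 500 cells per library from untreated donors aged 7 or 7.6 weeks. The EOM graft and TA graft groups hold the GFP-positive cells sorted again at day 21 from the TA of Rag2-/-;γC-/- hosts, which lack lymphocytes and whose muscle had been injured with cardiotoxin before the cells were put in, and these libraries hold a median of 35 cells (at least 9) for EOM and of 26 (at least 16) for TA. Of 40 libraries from 10 donor mice and 2 experiments, 30 passed the study's quality control, 8 EOM pre-graft, 8 TA pre-graft, 7 EOM graft and 7 TA graft, and EOM and TA cells of the same donor were used side by side.

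Ligands of this family bind a pair of type II and type I receptors, which phosphorylate receptor Smads. Smad2 and Smad3 carry the signal of TGF-betas, activins and myostatin, and Smad1, Smad5 and Smad9 that of BMPs, each together with Smad4. In adult muscle, BMP signalling through the Id proteins is known to keep stem cells from differentiating, TGF-beta and myostatin are known to restrain growth and fusion, and secreted antagonists such as chordin, noggin and follistatin trap the ligands outside the cell.

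Levels are the deposited log2 RPM, reads scaled to the depth of the library, in which a gene without a read stands at the value of 0.9 of a read. Depth limited what could be seen of the weaker members, since the libraries held 963432 to 4169357 recovered reads on genes. Mitochondrial genes took on average 4.84% of these reads in EOM pre-graft, 14.5% in TA pre-graft, 44.3% in EOM graft and 38.4% in TA graft. The summed RPM of 14 MuSC markers (among them Pax7, Myf5 and Cdh15) had a range of 17110 to 21320 in EOM pre-graft and 16050 to 28180 in TA pre-graft, but of 1742 to 17480 in EOM graft and 414.2 to 12520 in TA graft. Over the same groups, the summed RPM of 12 endothelial markers (among them Pecam1, Cdh5 and Kdr) had medians of 264.2, 544.4, 3872 and 5249, and each of the 12 had reads in every group. The 8 smooth muscle and pericyte markers had medians of 698.1, 669.8, 2090 and 2666. Fewer cells of a type and less RNA per cell cannot be told apart in these pooled libraries.

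A median of 45.5 members had reads in EOM pre-graft, 44 in TA pre-graft, 40 in EOM graft and 42 in TA graft. Several well-known regulators of muscle were all but silent at the RNA level. Mstn (myostatin), the growth inhibitor made by muscle fibres, had 15 reads in all 30 libraries together. The BMP antagonists Nog and Grem1 had 4 and 29 reads, and the ligands Bmp7, Bmp3 and Gdf10 had 24, 58 and 5. Bmp10, Gdf2 and Gdf5 had 0 reads, a count that allows up to 3 reads over the 30 libraries. Bmp15, Gdf3, Gdf7, Fstl4, Fstl5, Ltbp2 and Smad9 had between 2 and 46 reads in all, from 1 to 7 libraries.

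**Figure D1:**
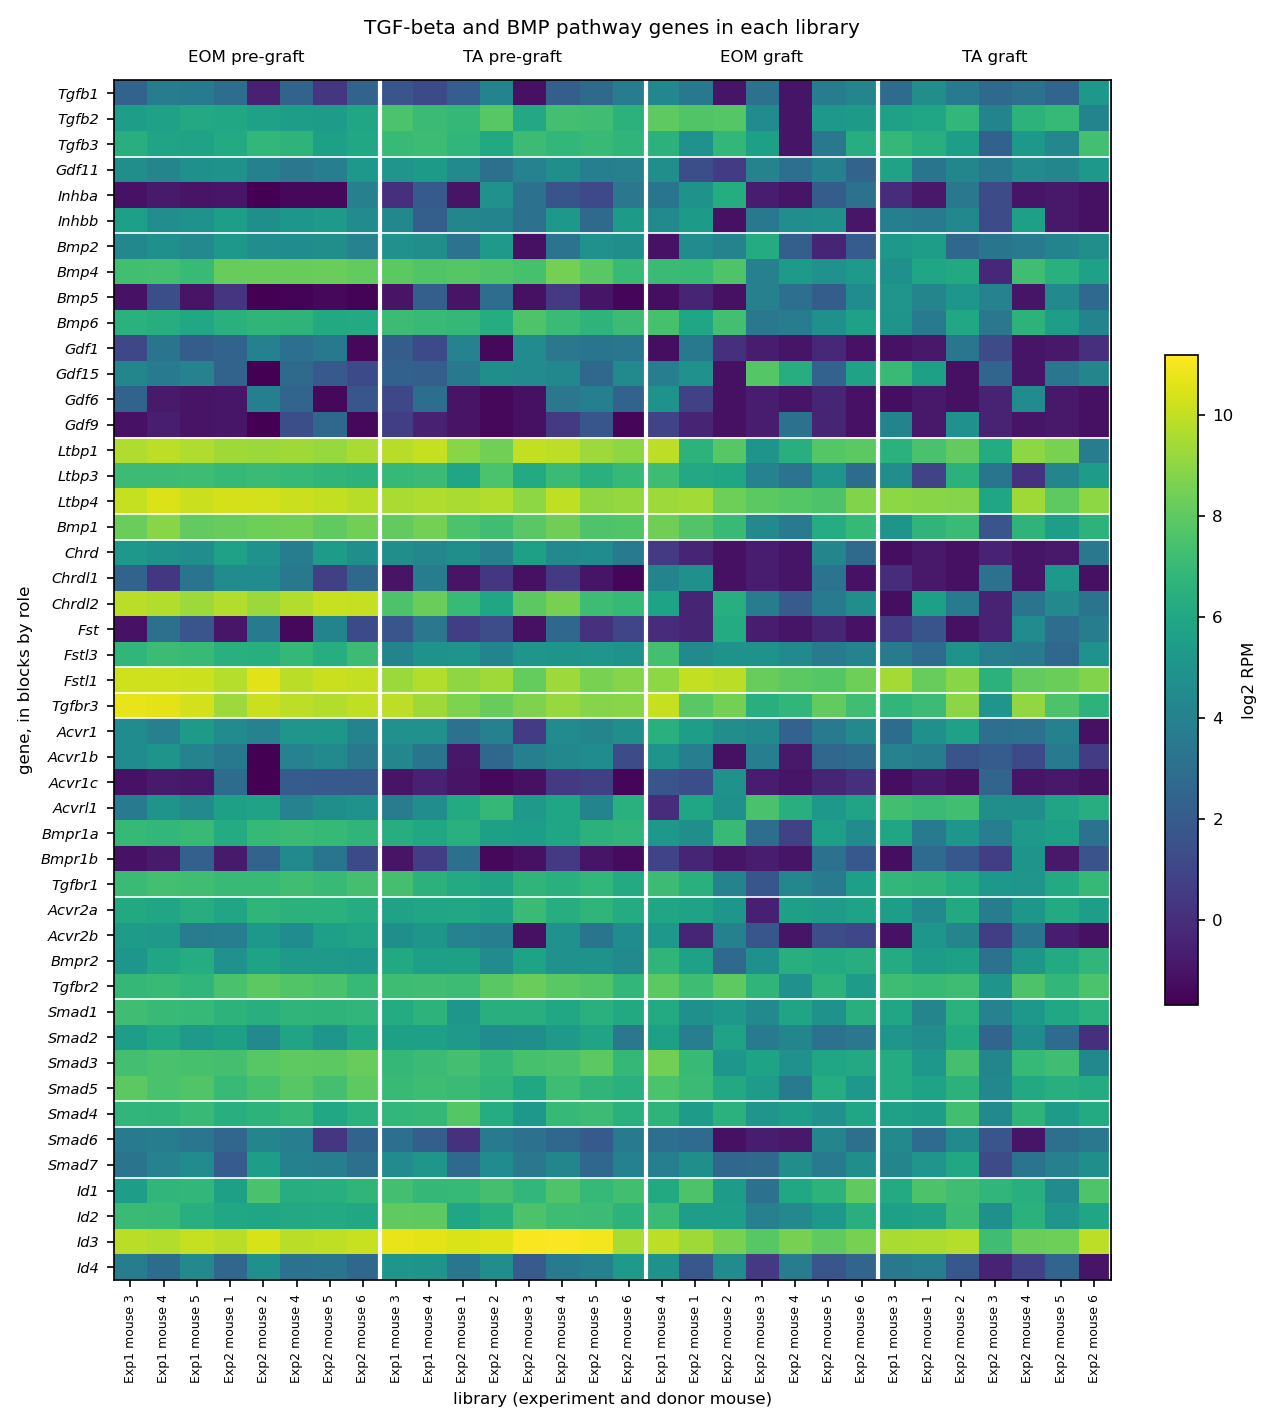
Level in log2 RPM (colour) of the members with reads in at least 10 of 30 libraries, 1 row per gene in blocks by role and 1 column per library. The Chrdl2 row is bright in EOM pre-graft, paler in TA pre-graft and dark in both graft groups, and the Id3, Ltbp4, Fstl1 and Tgfbr3 rows stay bright in most libraries.

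Per kilobase of exon, Id3, which encodes an inhibitor of basic helix-loop-helix factors and is a standard BMP target, stood highest in both muscles before grafting, at a log2 mean RPM per kb of 9.16 in EOM and 9.88 in TA. In EOM it was followed by Chrdl2 at 7.88, Fstl1 at 7.87, Ltbp4 at 7.50 and Tgfbr3 at 7.46. Chrdl2 and Fstl1 did not differ beyond the spread between libraries, and neither did Ltbp4 and Tgfbr3. In TA the next were Id1 at 6.96, Fstl1 at 6.81, Ltbp4 at 6.80 and Bmp4 at 6.63, whose differences were within that spread, and Chrdl2 stood at 5.76. Among the ligands Bmp4 was the most abundant per length in both, at 6.73 and 6.63, ahead of Bmp6, Tgfb3 and Tgfb2, which lay between 3.22 and 5.13 on the same scale. Tgfb1 lay far below them, at 0.35 in EOM and 0.39 in TA. Receptors were present for both branches: Tgfbr2, the TGF-beta type II receptor, stood at 4.31 and 4.57, Tgfbr1 at 4.46 and 3.90, Bmpr1a at 4.20 and 3.54 and Acvr2a at 3.83 and 3.79. Smad3 at 5.27 and 4.83, Smad4 at 4.78 and 4.96, Smad5 at 4.75 and 3.96 and Smad1 at 4.19 and 3.60 were above Smad2 at 2.42 and 2.05, and the inhibitory Smad6 and Smad7 lay between 1.14 and 1.95.

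To compare head and limb MuSCs at rest, TA pre-graft was set against EOM pre-graft. Of 45 members tested, 1 was called higher in TA and 5 higher in EOM, a call being a log2 fold change larger than 1 in size at an adjusted p below 0.05 (limma, Benjamini-Hochberg over all genes). Of all 13217 genes tested, 4.56% were called, 1.26% higher in TA and 3.31% higher in EOM. The 5 members higher in EOM include 3 secreted antagonists (Chrdl2, Chrdl1 and Fstl3), and the 1 member higher in TA is the ligand Tgfb2. Of these 3 antagonists, edgeR and DESeq2 called Chrdl2 and Fstl3 but not Chrdl1. The median log2 fold change of the members was -0.23 and that of all genes -0.30. Scaling moved the split: 2 and 3 members were called with libraries centred on their median, 1 and 3 without mitochondrial genes, and 2 and 2 with edgeR or with DESeq2.

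Chrdl2 (chordin-like 2, ENSMUSG00000030732, chromosome 7, 100006404 to 100034728 on GRCm38) encodes a secreted BMP antagonist. Its log2 RPM in EOM pre-graft had a lowest value of 9.28, a median of 9.73 and a highest of 10.10, from 1185 to 2812 reads per library. In TA pre-graft the lowest, median and highest values were 5.92, 7.42 and 8.54. Each of the 8 EOM libraries lay above each of the 8 TA libraries, and the TA libraries were the more widely spread. The log2 fold change of TA over EOM was -2.28 ± 0.27 (SE), a 4.86-fold difference (limma, adjusted p = 6.78e-06), and the call held in all 11 alternatives run.

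Fstl3 (follistatin-like 3), which binds and neutralises activins and myostatin, lies on chromosome 10 from 79777272 to 79782630. The bases that run from 250 to 11 before its RefSeq start are shown because this gene gave the smallest adjusted p of the members, with the match to the Smad motif CAGAC (either strand) in capitals (GRCm38.p6, plus strand, chr10:79777024-79777263):

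Fstl3 promoter: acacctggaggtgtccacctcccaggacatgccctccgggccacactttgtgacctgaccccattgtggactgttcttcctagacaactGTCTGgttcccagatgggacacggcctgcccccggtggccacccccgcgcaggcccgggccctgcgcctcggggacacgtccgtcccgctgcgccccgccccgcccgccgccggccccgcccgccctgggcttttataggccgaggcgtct

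CAGAC or its reverse complement was found in 40.9% of the 32851 promoters of the table and in 46.4% of the 56 promoters of the 44 members that matched. The motif GGCGCC, searched on both strands in the same windows, was in 9.08% of all promoters and in 21.4% of those of members, and not in this one. A match of letters is a description only.

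The log2 RPM of Fstl3 in EOM pre-graft was 6.36, 6.84 and 7.13 at the lowest, median and highest library. In TA pre-graft it was 4.11, 4.95 and 5.04. The groups did not overlap, and the gap between them was wider than the range within either. The log2 fold change was -2.02 ± 0.21 (4.07-fold, limma, adjusted p = 1.19e-06), again called in all 11 alternatives. Prss57 overlaps Fstl3 on the other strand, and the reads do not keep strand.

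Chrdl1, a related BMP antagonist, had reads in 8 of 8 EOM libraries and in 2 of 8 TA libraries. Its log2 RPM was 0.38, 2.98 and 4.55 in EOM at the lowest, median and highest library, and -1.45, -1.01 and 3.79 in TA. There 1 library with 18 reads reached the EOM range, and another without a read stood at 0.48, also inside it on this scale. The log2 fold change of -2.89 ± 0.80 (limma, adjusted p = 0.0267) rests on at most 67 reads per library. Chrdl1 was called in 6 of 11 alternatives and in 2 of the 4 rescaled fits, not with edgeR or DESeq2. It was not called with the donor as replicate block either (-2.67, limma, adjusted p = 0.0801). Chrd, chordin itself, was measured at medians of 4.91 in EOM and 4.49 in TA, with overlapping groups.

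Fstl1, a secreted glycoprotein of the follistatin family, ranged from 9.77 to 10.62 in EOM (median 10.20) and from 8.15 to 9.70 in TA (median 9.15). No TA library reached the lowest EOM library. Its log2 fold change was -1.11 ± 0.18 (limma, adjusted p = 0.000332), and -0.97 with the replicate block, within the fold limit. Tgfbr3 (betaglycan), the co-receptor that presents TGF-beta 2 to its receptors, had a median log2 RPM of 10.06 in EOM (9.33 to 10.74) and of 8.88 in TA (8.20 to 9.93), with a log2 fold change of -1.12 ± 0.22 (limma, adjusted p = 0.00223). The Tgfbr3 groups overlapped in their outer libraries. After centring, the log2 fold changes were -0.87 for Fstl1 and -0.88 for Tgfbr3, and none of the 4 rescaled fits placed either beyond the fold limit. Of members tested, 3 were without overlap and higher in EOM (Chrdl2, Fstl3 and Fstl1), as were 1.81% of all genes.

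Tgfb2, one of the 3 TGF-beta ligands, went the other way. Its log2 RPM was 5.44, 5.69 and 6.11 at the lowest, median and highest EOM pre-graft library, and 6.10, 7.16 and 7.84 in TA pre-graft. The lowest TA library lay just under the highest EOM library, and the other TA libraries were above all EOM libraries. The log2 fold change was 1.35 ± 0.21 (2.54-fold, limma, adjusted p = 0.000228), called in 10 of 11 alternatives. With all libraries, whatever their quality, it was 0.87 (adjusted p = 0.409). Tgfb3 and Bmp6 were also higher in TA with adjusted p under 0.05 (0.69 ± 0.20, limma, adjusted p = 0.0386, and 0.60 ± 0.18, adjusted p = 0.043), but within the fold limit.

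**Figure D2:**
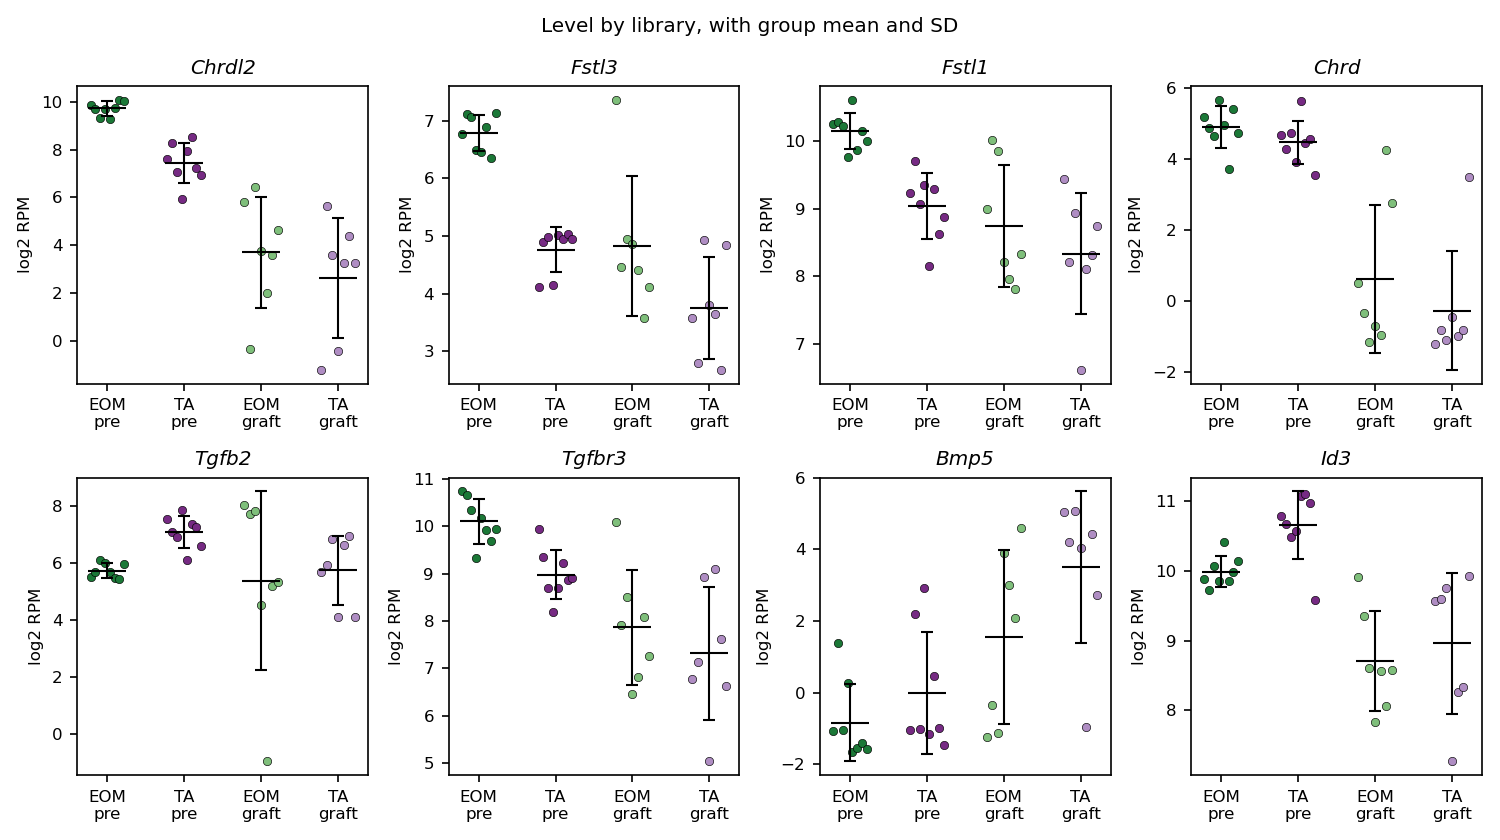
Log2 RPM of 8 members in each library (points) by group, with group means (dashes) and SD (bars). Chrdl2, Fstl3 and Fstl1 separate EOM from TA before grafting without overlap, Chrdl2 and Chrd lie low in both graft groups, and Bmp5 has reads in 10 of 14 graft libraries.

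The receptors and Smads differed less. Bmpr1a (-0.70 ± 0.20, limma, adjusted p = 0.0294), Tgfbr1 (-0.63 ± 0.18, adjusted p = 0.0383), Smad5 (-0.80 ± 0.18, adjusted p = 0.00677) and the matrix protein Ltbp4 (-0.71 ± 0.15, adjusted p = 0.00356) were higher in EOM within the fold limit. None of the 4 type II receptors or of the 4 receptor Smads tested was called. The 4 Id genes had log2 fold changes of 0.66 to 0.78. Id3 alone of them had an adjusted p under 0.05 (0.66 ± 0.18, limma, adjusted p = 0.024), and its groups overlapped, at 9.72 to 10.42 in EOM and 9.58 to 11.10 in TA. Id2, whose fold was 0.78 with an adjusted p of 0.0879 in limma, was called higher in TA after centring (1.02, adjusted p = 0.0237), with edgeR (1.06, adjusted p = 0.0148) and with DESeq2 (1.07, adjusted p = 0.00101).

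Of 63 other genes of the pathway, 44 were tested. Of these 2 were called higher in TA and 3 higher in EOM, where 1.26% and 3.31% of all genes were. Thbs1, thrombospondin 1, which releases TGF-beta from its latent complex, stood at 8.55, 9.36 and 9.79 in TA and at 4.38, 5.27 and 6.70 in EOM (lowest, median and highest), with no overlap and a log2 fold change of 3.96 ± 0.27 (limma, adjusted p = 2.85e-09). Nedd4l, an E3 ligase that acts on Smad2 and Smad3, was higher in TA by 1.03 ± 0.18 (adjusted p = 0.000539). Higher in EOM were Dcn (decorin, a matrix proteoglycan that binds TGF-beta, -5.62 ± 1.24, adjusted p = 0.00592) and the TGF-beta response genes Tgfbi (-2.63 ± 0.68, adjusted p = 0.0178) and Ctgf (-1.34 ± 0.38, adjusted p = 0.0299). Dcn had reads in 4 of 8 TA pre-graft libraries and ranged from -1.45 to 9.99 there, with 2413 reads in the highest. The 12 fibro-adipogenic and tendon markers summed to 2102 to 3974 RPM in EOM pre-graft and 1982 to 3725 in TA pre-graft, the 12 Schwann and oligodendrocyte markers to 66.81 to 4038 and 29.74 to 592.5. The 12 dissociation stress genes had median sums of 15740 in EOM and 22710 in TA, with 2 of 12 called higher in TA. The 12 endothelial markers had a median log2 fold change of 2.90, with 1 called higher and 1 lower in TA. The part of any of these lists in the differences before grafting was not tested.

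To ask how transplantation itself changed the cells, TA graft was set against TA pre-graft. Of 44 members tested, 1 was called higher and 17 lower after grafting, while 34.7% of all 13076 genes were called, 3.79% higher and 30.9% lower. The whole transcriptome moved on this scale, with a median log2 fold change of -1.09 over all genes and of -1.02 over the members. Members' changes are therefore given also relative to the median of all genes. Rescaling left fewer lower calls: 4 higher and 6 lower with libraries centred on their median, 1 and 9 without mitochondrial genes, 2 and 1 with edgeR, and 4 and 2 with DESeq2. Chrdl2 was the 1 member that edgeR called lower, and Chrdl2 and Chrd were the 2 that DESeq2 did.

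The 2 antagonists Chrdl2 and Chrd fell furthest of the members. The other 2 secreted antagonists tested were not called, Fst at 0.47 and Fstl3 at -1.01, which is 0.08 above the median gene. Chrdl2 had reads in 5 of 7 TA graft libraries, with log2 RPM values of -1.22, 3.27 and 5.62 at the lowest, median and highest library. All 7 lay below the lowest TA pre-graft library (5.92). It fell by 4.80 ± 0.77 (SE) on the log2 scale (limma, adjusted p = 0.000343), which is 3.71 beyond the median of all genes, and it was called lower in all 13 alternatives. Chrd had reads in 8 of 8 TA pre-graft libraries (3.56 to 5.61) and in 1 of 7 TA grafts, which held 22 reads and a log2 RPM of 3.48. It fell by 4.73 ± 0.79 (limma, adjusted p = 0.000491) and was called in 12 of 13 alternatives, the exception being edgeR (-3.18, adjusted p = 0.0719). Thpo overlaps Chrd on the other strand. Bmp1, whose protease also cleaves chordin, went from 7.26 to 8.52 in TA pre-graft to 1.71 to 7.09 in TA graft, again without overlap (-2.26 ± 0.56, limma, adjusted p = 0.00588). Chrdl2, Chrd and Bmp1 were the 3 members without overlap, against 4.97% of all genes.

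Among the proteins that store latent TGF-beta in the matrix, each of the 3 tested was called lower, where 30.9% of all genes were. Ltbp3 fell by 3.18 ± 0.70 (limma, adjusted p = 0.00292), from a median log2 RPM of 6.93 to 4.16, Ltbp1 fell by 2.34 ± 0.54 (adjusted p = 0.004), from 9.55 to 7.48, and Ltbp4 fell by 1.04 ± 0.41 (adjusted p = 0.049). The fall of Ltbp4 was within 0.05 of that of the median gene and was not called with the replicate block (adjusted p = 0.0561). Of the ligands, Bmp4 fell by 2.60 ± 0.70 (adjusted p = 0.00898), from a median of 7.76 to 5.94. Without the TA graft of mouse 3 of Experiment 2, which had over 60% mitochondrial reads, the value of Bmp4 was -1.69 (adjusted p = 0.00156), and it was not called with edgeR (-1.12, adjusted p = 0.0989) or DESeq2 (-1.04, adjusted p = 0.0731). Bmp6 fell by 2.1 ± 0.46 (adjusted p = 0.00281), from 7.06 to 4.96. Gdf1 (-2.43 ± 0.92, limma, adjusted p = 0.0423), Tgfb3 (-1.45 ± 0.54, adjusted p = 0.0411) and Tgfb2 (-1.34 ± 0.46, adjusted p = 0.0274) were called lower on the deposited scale only, by none of the rescaled fits, and with the replicate block Gdf1 (-2.62, adjusted p = 0.0559) and Tgfb3 (-1.40, adjusted p = 0.0523) were not called. Gdf1 shares its locus with Lass1 and Bmp4 overlaps predicted genes, so those reads cannot be assigned.

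Of the 4 Id genes, 3 were called lower in TA grafts, where 30.9% of all genes were. Id3 went from 9.58, 10.73 and 11.10 (lowest, median, highest) to 7.27, 9.57 and 9.93, a fall by 1.69 ± 0.39 (limma, adjusted p = 0.00391), with 3 of 7 grafts inside the pre-graft range. Id4 fell by 2.54 ± 0.83 (adjusted p = 0.0232) and Id2 fell by 1.31 ± 0.42 (adjusted p = 0.0215, and 0.059 with the replicate block), while Id1 was -0.52 and not called. Relative to the median of all genes, Id3, Id4 and Id2 changed by -0.61, -1.45 and -0.22. None of the 4 rescaled fits called Id4 or Id2, and 1 called Id3, that without mitochondrial genes (-1.10, limma, adjusted p = 0.00538). Tgfbr3 fell by 1.66 ± 0.46 (limma, adjusted p = 0.0104), Bmpr1a fell by 1.53 ± 0.47 (adjusted p = 0.0179), and Smad3 fell by 1.33 ± 0.46 (adjusted p = 0.0304). Relative to the median of all genes these 3 changes were -0.57, -0.45 and -0.24. The sum of MuSC markers was lower and that of endothelial markers higher in TA grafts than before grafting, as given above. The dissociation stress genes were lower in grafts, at median sums of 9298 RPM in TA and 5024 RPM in EOM. Of the 12, 9 were called lower in TA and 7 in EOM, where 30.9% and 55.8% of all genes were. The part of these lists in the falls was not tested.

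**Figure D3:**
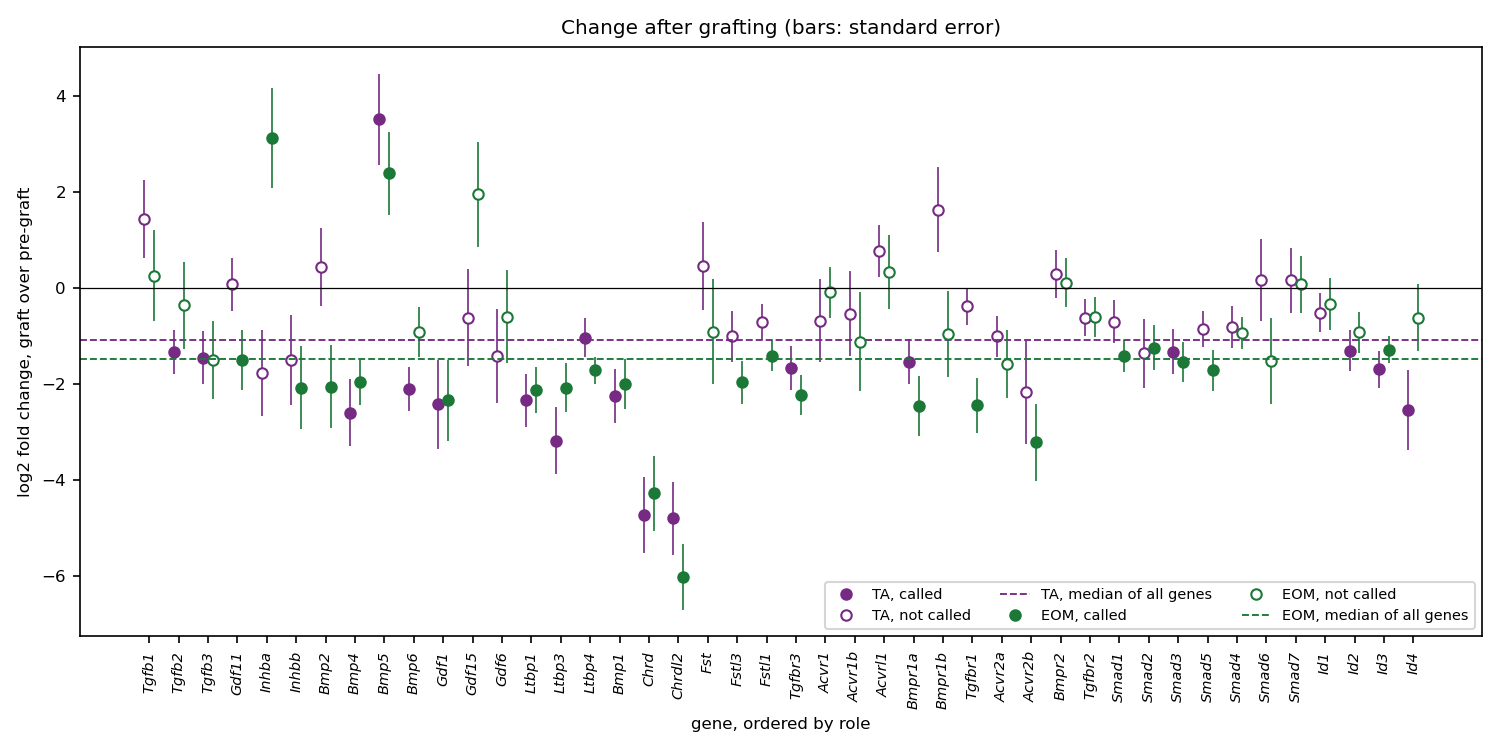
Log2 fold change of graft over pre-graft with its SE for each member tested in both muscles, in TA (purple) and EOM (green), filled where called, with dashed lines at the median of all genes (-1.09 and -1.48). Most members lie along these lines, Chrdl2 and Chrd lie far below them in both muscles, and Bmp5 lies far above.

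In EOM MuSCs placed into TA, 2 of 46 members were called higher and 22 lower relative to EOM pre-graft. Of all 13094 genes, 59.3% were called, 3.51% higher and 55.8% lower, a background at which 22 lower calls among 46 members are no result about the members. The median log2 fold change was -1.48 over all genes and -1.41 over the members. With libraries centred on their median 2 members were called higher and 2 lower, without mitochondrial genes 2 and 8, with edgeR 4 and 1, and with DESeq2 7 and 1. The comparison shares no library with that in TA, but donors and hosts were in part the same.

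Chrdl2, which was higher in EOM than in TA before grafting, had the largest fall of all members. From a range of 9.28 to 10.10 before grafting, its log2 RPM went to -0.34, 3.76 and 6.45 at the lowest, median and highest EOM graft, with no overlap. It fell by 6.02 ± 0.68 (limma, adjusted p = 1.28e-05), and 0.0458% of all genes had a lower fold change. All 13 alternatives called it, with values from -6.42 to -3.93. In EOM graft mouse 4 of Experiment 1, MuSC markers summed to 17480 RPM, within the range before grafting, and endothelial markers to 236.5 RPM. There Chrdl2 stood at 5.80, below every EOM pre-graft library. Not all members called lower were low there. In that library Tgfbr1 (7.13) and Tgfbr3 (10.085) lay inside their EOM pre-graft ranges, and Ltbp1 (9.94) and Smad3 (8.44) above them. Ltbp4 lay below its range there, as in every EOM graft. This is a single library, and the part of MuSC or endothelial RNA in the fall of Chrdl2 was not tested.

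Chrd fell by 4.27 ± 0.78 (limma, adjusted p = 0.000527), from 3.72 to 5.67 before grafting to -1.14 to 4.23 after it, with reads in 3 of 7 grafts. It was called in 11 of 13 alternatives, and not by edgeR (-1.62) or DESeq2 (-1.51). Fstl3 fell by 1.97 ± 0.44 (adjusted p = 0.00177), from a median of 6.84 to 4.45. The highest EOM graft of Fstl3, mouse 4 of Experiment 1 at 7.37, lay above all EOM pre-graft libraries, and the other 6 grafts (3.58 to 4.95) lay below them. Relative to the median of all genes Fstl3 fell by 0.49. It was not called after centring (-0.72), with edgeR (-0.60) or with DESeq2 (-0.51). Fstl1 fell by 1.41 ± 0.32 (adjusted p = 0.0019), the same as the median gene to within 0.07.

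Of the receptors, Acvr2b, Tgfbr1, Bmpr1a and Tgfbr3 were called lower. Acvr2b, a type II receptor for activins and myostatin, had a median log2 RPM of 5.21 before grafting (3.75 to 5.84) and of 1.36 after it (-0.95 to 5.18), a fall by 3.21 ± 0.80 (limma, adjusted p = 0.00327). Of the 7 grafts, 2 lay inside the pre-graft range. Tgfbr1 fell by 2.44 ± 0.57 (adjusted p = 0.00227), from a median of 7.15 to 4.29, Bmpr1a fell by 2.46 ± 0.62 (adjusted p = 0.00365), from 6.95 to 4.72, and Tgfbr3 fell by 2.23 ± 0.41 (adjusted p = 0.000525), from 10.06 to 7.91. The highest grafts of Tgfbr1 (7.13) and Tgfbr3 (10.085), both mouse 4 of Experiment 1, lay inside the pre-graft ranges. None of Acvr2b, Tgfbr1, Bmpr1a and Tgfbr3 was called after centring, with edgeR or with DESeq2. Without mitochondrial genes Bmpr1a was not called either, while Acvr2b (-2.34, limma, adjusted p = 0.0334), Tgfbr1 (-1.57, adjusted p = 0.0174) and Tgfbr3 (-1.35, adjusted p = 0.007) were.

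All 4 receptor Smads tested were called lower in EOM grafts, by about as much as the median gene. Smad5 fell by 1.72 ± 0.43 (limma, adjusted p = 0.00356), Smad3 fell by 1.54 ± 0.42 (adjusted p = 0.00553), Smad1 fell by 1.42 ± 0.34 (adjusted p = 0.00261) and Smad2 fell by 1.24 ± 0.47 (adjusted p = 0.0285). Each lay within 0.24 of the median of all genes, and none was called by any rescaled fit. Smad4 (-0.94), Smad7 (0.08) and Smad6 (-1.52) were not called.

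The remaining calls were of ligands and matrix proteins. Ltbp1 fell by 2.12 ± 0.47 (limma, adjusted p = 0.00168), Ltbp3 fell by 2.07 ± 0.52 (adjusted p = 0.00327) and Ltbp4 fell by 1.71 ± 0.28 (adjusted p = 0.000257), the last without overlap (9.80 to 10.51 before and 7.59 to 9.42 after grafting). Bmp1 fell by 2.00 ± 0.53 (adjusted p = 0.00458), Bmp4 fell by 1.96 ± 0.47 (adjusted p = 0.00261) and Id3 fell by 1.29 ± 0.28 (adjusted p = 0.00146). Relative to the median of all genes, Ltbp1, Ltbp3, Ltbp4, Bmp1 and Bmp4 changed by -0.65, -0.60, -0.24, -0.53 and -0.49, and Id3 fell less than the median gene, by 0.19. None of these 6 was called after centring, with edgeR or with DESeq2. Chrdl2, Ltbp4 and Acvr2a were the 3 members without overlap, where 11.1% of all genes were lower without overlap, and Acvr2a itself was not called (-1.59, adjusted p = 0.0552).

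A further 4 ligands were called lower near the threshold, Gdf1 (-2.34 ± 0.85, limma, adjusted p = 0.0233), Bmp2 (-2.05 ± 0.86, adjusted p = 0.0435), Inhbb (-2.07 ± 0.87, adjusted p = 0.0443), a beta subunit of activin, and Gdf11 (-1.50 ± 0.63, adjusted p = 0.0453), a close relative of myostatin. The highest Bmp2 value of all groups, 6.25, was in an EOM graft, another EOM graft had no read, and the count tests gave a positive fold change (0.89 with edgeR, 1.07 with DESeq2). Inhbb and Gdf11 changed sign in the same way. With the replicate block Gdf1 (-2.46, adjusted p = 0.054), Inhbb (-2.1, adjusted p = 0.0763), Gdf11 (-1.59, adjusted p = 0.133) and Smad2 (-1.18, adjusted p = 0.128) were not called.

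**Figure D4:**
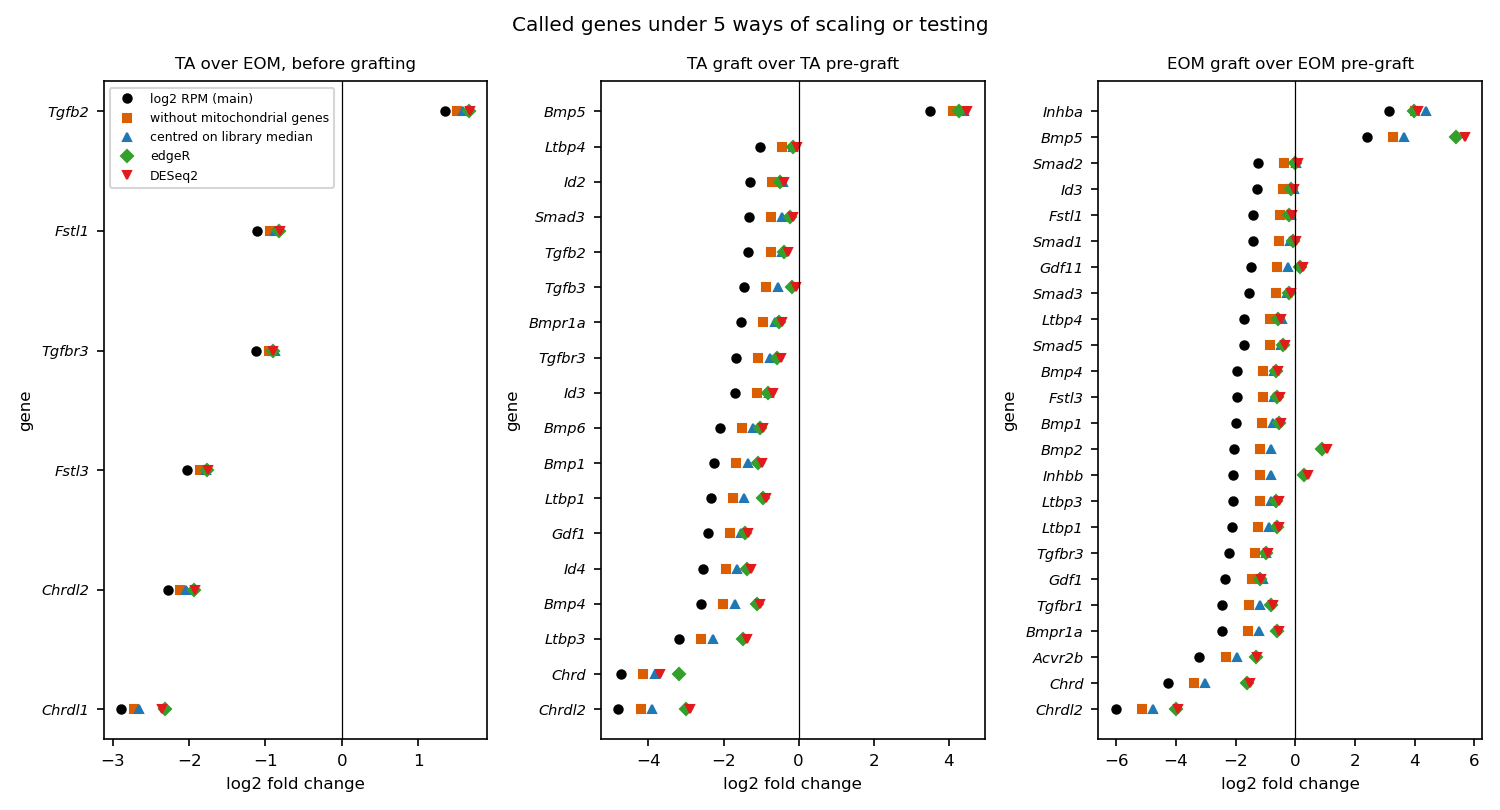
Log2 fold change of each called member in 3 comparisons under the deposited scale (black) and under 4 other scalings or tests (colours). Before grafting the symbols stay close together, while for the grafts the colours lie to the right of the black symbols. In both muscles Chrdl2, Bmp5, Chrd and Gdf1 keep folds beyond 1 in all 5, called or not. Some other members do so in 1 muscle, as Inhba and Acvr2b in EOM and Ltbp3, Bmp4 and Id4 in TA.

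Against the general fall, 2 ligands were called higher. Bmp5, a BMP ligand of the Bmp6 group, lies on chromosome 9 from 75775364 to 75900310. Its promoter window is shown as that of the member called higher in both muscles, with the match to CAGAC (here as its reverse complement) in capitals (GRCm38.p6, plus strand, chr9:75775115-75775354):

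Bmp5 promoter: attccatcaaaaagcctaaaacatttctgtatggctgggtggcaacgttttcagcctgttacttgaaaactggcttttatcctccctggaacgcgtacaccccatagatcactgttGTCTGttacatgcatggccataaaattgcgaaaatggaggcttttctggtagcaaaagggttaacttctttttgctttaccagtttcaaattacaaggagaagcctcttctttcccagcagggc

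Bmp5 had reads in 2 of 8 EOM pre-graft and 2 of 8 TA pre-graft libraries, at most 18 reads. In TA grafts 6 of 7 libraries had reads, with log2 RPM values of -0.96, 4.20 and 5.07 at the lowest, median and highest, and the log2 fold change was 3.51 ± 0.95 (limma, adjusted p = 0.00902). In EOM grafts 4 of 7 libraries had reads (-1.24, 2.1 and 4.59), and the log2 fold change was 2.39 ± 0.87 (adjusted p = 0.0238). The groups overlapped in both muscles, since grafts without a read stand at the same value as most pre-graft libraries, so the fold depends on that value. All 4 rescaled fits called Bmp5 higher in both muscles. The EOM call was lost with the replicate block (1.92, adjusted p = 0.127), with all libraries (1.16), and without the libraries over 60% mitochondrial (1.30). Neither call held in grafts of at least 30 cells (2.85, adjusted p = 0.139 in TA, and 1.63 in EOM).

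Inhba, the beta A subunit of activin A, was called higher in EOM grafts. It had reads in 2 of 8 EOM pre-graft libraries, 1 of them with 40 reads, and in 5 of 7 EOM grafts (-0.95, 3.15 and 6.27), a log2 fold change of 3.13 ± 1.04 (limma, adjusted p = 0.0151). The call was lost with edgeR (3.98, adjusted p = 0.0707), with DESeq2 (4.12, adjusted p = 0.144), in Experiment 2 alone (2.76, adjusted p = 0.0863) and with all libraries (2.46, adjusted p = 0.0825). In TA 7 of 8 pre-graft and 3 of 7 graft libraries had reads, and the log2 fold change was -1.77, not called. The test of the difference between these changes follows the comparison of the grafts.

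Receptors, ligands and Id1 came up as higher in grafts when libraries were rescaled. Acvrl1 (ALK1), a type I receptor best known from endothelial cells, had log2 fold changes of 0.78 in TA and 0.33 in EOM, not called, but was called higher in TA after centring (1.67, adjusted p = 0.0274) and with DESeq2 (1.41, adjusted p = 0.0388), and in EOM with edgeR (2.55, adjusted p = 0.02) and DESeq2 (2.71, adjusted p = 0.000932). Bmpr2 was called higher in TA after centring (1.18), with edgeR (1.13) and with DESeq2 (1.24), and in EOM with edgeR (1.64) and DESeq2 (1.77). Tgfb1 was called higher in TA after centring (2.33) and with DESeq2 (1.97). DESeq2 also called Tgfb2 (1.81, adjusted p = 0.0106), Acvr1 (1.22, adjusted p = 0.00581) and Id1 (1.37, adjusted p = 0.046) higher in EOM grafts, where limma on the deposited scale gave -0.36, -0.09 and -0.33. Tgfb2 was called higher by limma too once libraries over 60% mitochondrial were left out (1.48, adjusted p = 0.0142). Gdf15, a stress-induced member of the family, was called higher in EOM with edgeR (4.36) and DESeq2 (4.55).

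Endothelial markers were higher in the same grafts. Of the 12 endothelial markers 11 were called higher in TA grafts and 11 in EOM grafts, where 3.79% and 3.51% of all genes were. In EOM graft mouse 4 of Experiment 1, where those markers summed to 236.5 RPM, Acvrl1 stood at -0.09 and Bmp5 had no read, while the EOM graft with the highest Acvrl1 (7.52), mouse 3 of Experiment 2, had a sum of 4947 RPM and a log2 RPM of 3.90 for Bmp5. Bmp5 had no read in 2 further EOM grafts, with sums of 1130 and 6860 RPM. Bmpr2 had its highest EOM graft value, 6.74, in the library with 236.5 RPM. In EOM pre-graft, where the sums were 101.7 to 928.2 RPM, Acvrl1 ranged from 3.60 to 5.75. What part endothelial RNA had in these values was not tested.

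**Figure D5:**
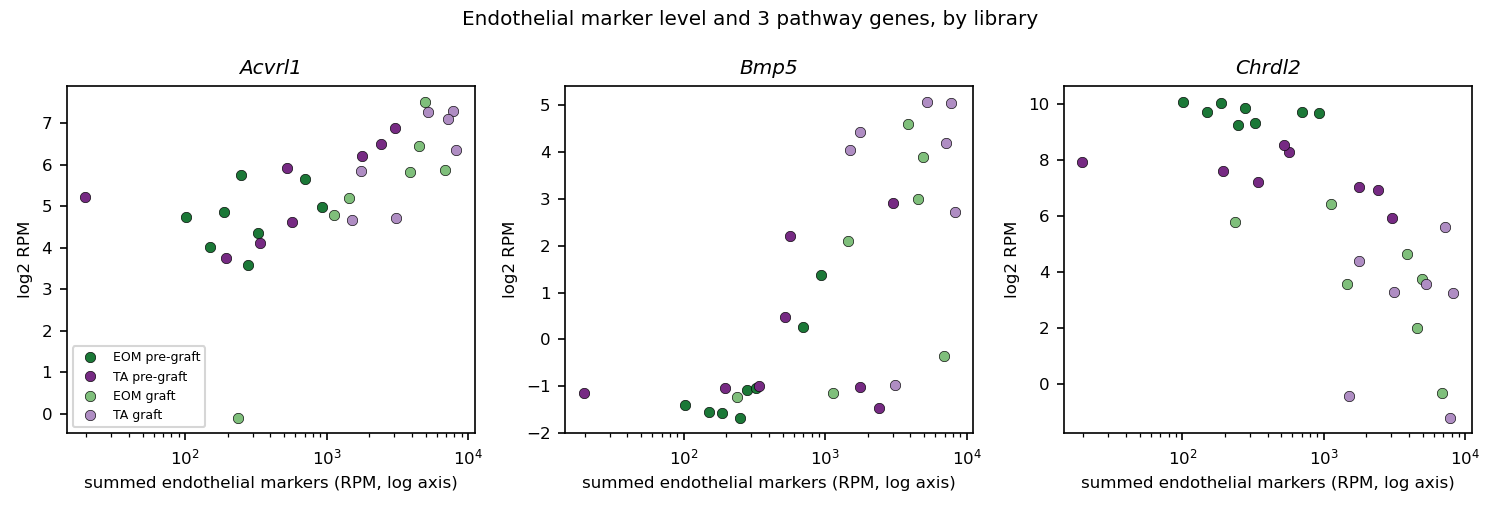
Log2 RPM of Acvrl1, Bmp5 and Chrdl2 against the summed RPM of 12 endothelial markers (log axis), 1 point per library, coloured by group. All but 1 of the grafts lie to the right of every EOM pre-graft library, while TA pre-graft libraries reach up to 3035 RPM and overlap the grafts. The EOM graft at 236.5 RPM has a low Acvrl1 level and a Chrdl2 level of 5.80.

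To compare the 2 kinds of cells within the same host muscle, EOM grafts were set against TA grafts. None of 43 members was called by limma, edgeR or DESeq2, and neither was any of 12377 genes (0%) by limma, and 2 members had an unadjusted p under 0.05. These were Inhba (2.45 ± 1.13, limma, p = 0.0374, adjusted p = 1) and Tgfbr1 (-1.43 ± 0.69, p = 0.0438, adjusted p = 1). Chrdl2, which had differed 4.86-fold before grafting, was at medians of 3.76 and 3.27 with wide overlap, and Fstl3 at 4.45 and 3.65. Tgfb2 had a median of 5.32 in EOM graft and 5.91 in TA graft. The spread in grafts was wider than before grafting, and a difference that was not called here has not been shown to be absent.

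Whether grafting changed EOM and TA cells differently was tested in a single model of all 30 libraries, as the EOM change less that of TA. None of 49 members was called by limma, edgeR or DESeq2, where 0.208% of 14428 genes were called by limma, 0.0554% higher and 0.152% lower, and 4 members had an unadjusted p under 0.05. Inhba gave the largest value, 4.90 ± 1.40 (limma, p = 0.00118, adjusted p = 0.207), with adjusted p from 0.0195 to 1 over 13 alternatives, and it was called in 1 of them, without the libraries over 60% mitochondrial (6.92). Tgfbr1 gave -2.06 ± 0.70 (p = 0.00541, adjusted p = 0.436), with changes of -2.44 in EOM and -0.38 in TA, and Bmp2 gave -2.49 ± 1.21 (p = 0.0461, adjusted p = 0.69). A call in one muscle and not in the other, as for Acvr2b, Fstl3, Id2 and Id4, was not a tested difference between them.

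Of the other pathway genes, 45 were tested in TA grafts, with 4 called higher and 14 lower. Of all genes 3.79% were called higher there and 30.9% lower. In EOM grafts 44 were tested, with 4 called higher and 21 lower, where 3.51% and 55.8% of all genes were. Against these shares the lower calls are no result about the pathway. The median log2 fold change was -0.68 in TA and -1.17 in EOM, and that of all genes -1.09 and -1.48. The changes named below are on the deposited scale. Lefty1, an antagonist of Nodal, had reads in 15 of 16 pre-graft libraries and in 1 of 14 grafts, a TA graft with 2 reads. It was called lower in both muscles (limma, adjusted p = 0.00248 in TA and 0.00399 in EOM), with no fold given since the EOM grafts had 0 reads. The BMP co-receptors Rgma (-2.63 in TA, -3.04 in EOM) and Rgmb (-2.30 and -1.80) and the chordin partner Twsg1 (-1.58 and -2.21) were lower in both. In TA grafts Nedd4l fell by 2.54 ± 0.44 (adjusted p = 0.000572), Thbs1 fell by 1.52 ± 0.39 (adjusted p = 0.00654), and Ctgf fell by 2.35 ± 0.60 (adjusted p = 0.00657), and in EOM grafts Skil (-2.09 ± 0.40, adjusted p = 0.000722), a repressor of Smad transcription, and Nbl1 (-1.71 ± 0.36, adjusted p = 0.00129), a BMP antagonist, were lower.

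Higher in TA grafts were Lrrc32, which tethers latent TGF-beta at the cell surface (4.70 ± 0.86, limma, adjusted p = 0.000878), and Dcn (6.56 ± 1.51, adjusted p = 0.00369). In EOM grafts Lrrc33 (3.17 ± 0.77, limma, adjusted p = 0.0029), Tsc22d1 (1.40 ± 0.33, adjusted p = 0.00222) and Eng (endoglin, 1.82 ± 0.48, adjusted p = 0.00436), an endothelial co-receptor for TGF-beta and BMP, were higher. Not all of the 4 genes called higher in each muscle are named here. In TA the 4 were 1 co-receptor, 1 gene listed for the handling of latent TGF-beta (Lrrc32) and 2 antagonists, Dcn among them. In EOM they were 1 co-receptor (Eng), 2 genes listed for the handling of latent TGF-beta, Lrrc33 among them, and 1 response gene (Tsc22d1). A gene named for 1 muscle is therefore not particular to it. Median sums of endothelial markers were higher in grafts, as given above. Of 9 fibro-adipogenic and tendon markers tested in TA grafts, 5 were called higher and 2 lower, with a median log2 fold change of 2.88. Their median sum went the other way, from 2292 RPM in TA pre-graft to 1773 in TA graft. In EOM grafts 2 of 11 were called higher and 3 lower. The part of either list in the values of Lrrc32, Dcn, Lrrc33, Tsc22d1 and Eng was not tested. In EOM graft against TA graft and in the difference of changes, 0 of 46 and 0 of 49 of the other pathway genes were called. Of all genes 0% and 0.208% were.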

How the data were processed

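RNA was sequenced in 40 libraries of sorted MuSCs, and 40 bisulfite libraries of the same study were not analysed here. The authors trimmed reads with Trim Galore 0.4.4, aligned them with HISAT2 2.1.0 to GRCm38, and deposited log2 RPM values per gene from Seqmonk. The tool that assigned reads to genes is not given in the sources used here. The authors also deposited read counts and percent of reads in exons and mitochondrial genes for each library. Samples were grouped by the labels and the quality control table of the study, and 10 libraries that did not pass were left out. Of 40 library columns 0 were left unused. A symbol found in more than 1 row kept 1 row, leaving 25899 of 25965.

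The members and lists were chosen with earlier results of these data known. The values of 1 member are not reported here. Named with values were all called members, a fixed set of members for their levels, and up to 10 called genes of the other pathway lists per comparison. Motifs and the 2 promoters shown were chosen after values were seen.

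Linear models were fitted to log2 RPM in limma 3.58.1 (R 4.3.3) with a variance trend, keeping a gene when 4 or more of the compared libraries exceeded a log2 RPM of 1, and p-values were two-sided and adjusted by Benjamini-Hochberg over all genes tested. Reads were recovered by taking a library's lowest value as 0.9 of a read (99.9986% of values lie within 0.1 of a whole read) and tested with edgeR 4.0.16 (quasi-likelihood) and DESeq2 1.42.0. The fit was tested on simulated data. Reads lay 49.6 to 50.5% on the sense strand, so overlapping genes cannot be separated. Exon lengths are those of GENCODE vM21, promoters those of RefSeq (GRCm38.p6), and 44 of 64 members matched a promoter.

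EOM and TA, and pre-graft and graft, libraries of one donor are paired by animal. Correlations of deviations from group means within donors ran from -0.08 to 0.177 before grafting, -0.0798 to 0.115 in TA, -0.218 to 0.103 in EOM and -0.122 to 0.0889 between grafts. Each library is a separate sort of 1 mouse, and the libraries of the grafts come from few cells. Intervals and zero counts cover counting error only.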

Additional observations from a re-analysis of the deposited data

Results flagged for a closer look

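In the 30 members called in these data, 120 groups of libraries were looked at. In 18 of them 1 library stood apart from the others by Dixon's test, 13 times the lowest and 5 times the highest. Chance gives about 1 in 20 for normal values in independent groups. These groups share libraries and some hold libraries without a read, so no conclusion is drawn from the count. In TA grafts the library of mouse 3 of Experiment 2, with 16 cells and 81.1% mitochondrial reads, was the lowest for Bmp1 (1.71 log2 RPM), Bmp4 (-0.286), Ltbp4 (5.9) and Smad5 (4.3). The lowest TA graft for Bmp5 stood at -0.965, without a read, and the highest for Chrd at 3.48, the 1 TA graft with Chrd reads. In EOM grafts Tgfb2 (-0.95) and Tgfb3 (-0.95) had no read in mouse 4 of Experiment 2, the library of 9 cells. Fstl3 was highest at 7.37 in the EOM graft of mouse 4 of Experiment 1, and Gdf1 at 3.51 in that of mouse 1 of Experiment 2.

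In TA pre-graft the lowest libraries for Acvr2b (-1.14) and Bmp2 (-1.14) had no read and were the same library, mouse 3 of Experiment 2. Those for Id3 (9.58), Smad1 (5.13) and Tgfb3 (6.12) came from 3 other mice. The highest TA pre-graft library for Chrdl1 stood at 3.79. In EOM pre-graft Bmpr1a had a lowest library at 6.25 and Inhba a highest at 3.91 log2 RPM.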

How the results depend on the processing

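Counts of called members are given as higher and lower. For TA against EOM before grafting (1 and 5), the donor as replicate block gave 1 and 3, all libraries 0 and 4, centring 2 and 3, leaving out mitochondrial genes 1 and 3, and edgeR and DESeq2 2 and 2 each. For TA grafts (1 and 17), Experiment 2 alone gave 1 and 9, centring 4 and 6, leaving out mitochondrial genes 1 and 9, edgeR 2 and 1, DESeq2 4 and 2, and grafts of at least 30 cells 0 and 7. For EOM grafts (2 and 22), the stricter filter gave 0 and 22, the replicate block 1 and 18, Experiment 2 alone 1 and 18, all libraries 0 and 20, centring 2 and 2, leaving out mitochondrial genes 2 and 8, edgeR 4 and 1, DESeq2 7 and 1, and grafts of at least 30 cells 1 and 20. The stricter filter tests neither Bmp5 nor Inhba there. Between grafts no setting called a member, and in the difference of changes leaving out libraries over 60% mitochondrial called 1, Inhba. That setting and the cut at 30 cells were chosen after seeing the data. Among members called in either fit, the sign turned in EOM grafts for Smad2 with centring (0.0064), for Inhbb (0.29), Bmp2 (0.89) and Gdf11 (0.15) with edgeR, for Inhbb (0.42), Tgfb2 (1.81), Acvr1 (1.22), Bmp2 (1.07), Id1 (1.37), Smad1 (0.026), Gdf11 (0.25) and Smad2 (0.10) with DESeq2, and for Tgfb2 without libraries over 60% mitochondrial (1.48, adjusted p = 0.0142, limma). Members called in neither fit turned sign too, 15 of 46 with edgeR, 13 with DESeq2 and 12 with centring in EOM grafts, 12, 14 and 10 of 44 in TA grafts, 8 of 45 each before grafting, 12, 12 and 3 of 43 between grafts, and 13, 14 and 5 of 49 in the difference of changes. The cause was not tested. The paired fit, with the donor as replicate block, ended the calls named beside each result and no other. Depth limits members with few reads, whose fold rests on the value given to 0 reads, and grafts hold few cells.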
